A study of Mus musculus with 2 samples.

Results

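The genes described here are 59 regulators of the transition from G1 into S phase and components of DNA replication, chosen by name as cyclins, cyclin-dependent kinases (CDKs), CDK inhibitors, pocket proteins, E2F factors, origin licensing factors, replication fork proteins and enzymes of nucleotide synthesis. They were found in the deposited table by matching its Ensembl mouse IDs to gene symbols, and no measured value entered that match. Of the 59 genes, 57 were matched among the 19498 genes of the table. The CDK inhibitor genes Cdkn2a and Cdkn2b were not analysed here. A deposited value of 33 in at least 1 library, called the floor, was reached by 56 of the 57 and by 11384 genes in all. The exception was Cdkn1c, a CDK inhibitor gene, with 3 control-treated and 0 LY500307-treated reads.

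RNA was sequenced, after removal of ribosomal RNA, from 4T1, a mouse breast cancer cell line that forms metastases. The question was which RNAs differ once the cells meet LY500307, a compound that activates estrogen receptor beta. The control-treated and the LY500307-treated group held 1 library each. The labels state no dose, duration or control agent. With no replicate, every value describes these 2 libraries and no p-value is given.

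The deposited values were rescaled counts, and dividing each by what 1 read was worth gave back whole reads, 14541874 for the control and 15104003 for LY500307. Reads of a gene are given in that order throughout. A fold divides the LY500307 value by the control value as deposited and carries a 95% exact interval, in parentheses, for counting error only. In cultures, fewer cells in S phase and less RNA per cell cannot be told apart. Because of the rescaling, a gene with equal reads in both libraries has a fold of 0.942. Epithelial markers were abundant, with 640 to 17073 reads for each of 9 genes in either library. The 4 leukocyte markers analysed of 7 listed had at most 8 reads per library, and 4 endothelial markers at most 6, with Cdh5 at 0 in the control. Of 4 fibroblast markers, Pdgfra had 271 and 285 reads, and no other had more than 28.

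In cycling cells, D-type cyclins with CDK4 or CDK6, and then E-type cyclins with CDK2, phosphorylate the retinoblastoma family of pocket proteins. These then release E2F transcription factors, which switch on the genes of DNA synthesis. Origins are licensed when the origin recognition complex, CDC6 and CDT1 load the MCM2-7 helicase, and they fire once CDC45 and the GINS complex join it. In carcinoma lines these genes are commonly read as a measure of proliferation.

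Many of these genes share an E2F motif at their start. The choice by name used no promoter sequence, but it took in genes of DNA synthesis, which E2F factors switch on. RefSeq promoter sequences (build GRCm38.p6) from 250 bases before to 50 bases after the transcription start were matched by symbol for 47 of the 59 genes. The E2F motif searched was TTGGCGC or TTCGCGC or TTCCCGC or TTGCCGC, on either strand. It was present in 28 of the 47 promoters, or 59.6% (exact 95% interval 44.3% to 73.6%). Among all 27025 genes with a promoter sequence it was present in 10.9%, and among 8368 protein-coding genes at or above the floor in 21%. The CCAAT motif was present in 66.0% of the 47, against 41.1% of all and 43.6% of the protein-coding genes. The cell cycle homology motif, TTTGAA or TTCGAA, was present in 23.4%, 21.7% and 15.9%. Among genes of replication and nucleotide synthesis with Uhrf1, 20 of 30 promoters held the E2F motif, and among cyclins, CDKs, inhibitors, pocket proteins and E2F factors 8 of 17. No binding was measured here, so a match describes letters only.

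The 100 bases before the start are shown for 5 genes with the motif in that window, the 2 with the lowest and the 2 with the highest ratios between the libraries and Mcm6, the only one with 2 overlapping matches. Capitals mark the E2F motif, and each sequence runs 5′ to 3′ on the strand of its gene. Cdkn2c lies at chr4:109666757-109666856 (minus strand), Uhrf1 at chr17:56303237-56303336 (plus strand), Mcm6 at chr1:128359706-128359805 (minus strand), Rrm1 at chr7:102441595-102441694 (plus strand) and Prim1 at chr10:128015115-128015214 (plus strand).
Cdkn2c: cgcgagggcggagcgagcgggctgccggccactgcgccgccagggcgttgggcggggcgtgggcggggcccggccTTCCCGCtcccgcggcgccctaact
Uhrf1: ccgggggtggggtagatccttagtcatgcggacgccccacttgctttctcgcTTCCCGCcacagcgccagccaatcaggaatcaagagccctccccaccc
Mcm6: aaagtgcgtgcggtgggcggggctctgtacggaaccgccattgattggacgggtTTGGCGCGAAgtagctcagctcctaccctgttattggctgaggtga
Rrm1: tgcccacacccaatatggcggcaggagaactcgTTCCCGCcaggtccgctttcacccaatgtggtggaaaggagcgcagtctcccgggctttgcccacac
Prim1: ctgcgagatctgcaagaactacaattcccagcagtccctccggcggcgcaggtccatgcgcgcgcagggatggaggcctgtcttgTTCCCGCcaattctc

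Between the libraries the G1/S and replication genes differed little. On a log2 scale with a pseudocount of 1.03, the 56 genes had a median log2 ratio of −0.04, with quartiles of −0.18 and 0.10 and a range from −0.41 for E2f2 to 0.26 for Orc2. All 11384 genes at or above the floor had a median log2 ratio of −0.02, with quartiles of −0.18 and 0.13. Genes were counted as apart at a ratio of 5 to 4, a log2 distance of 0.322. None of the 56 was higher with LY500307 by that much, where 7.15% of all genes were. Lower by that much were 4 of the 56, E2f1, E2f2, Cdt1 and Gins2, where 11.1% of all genes were. Cdt1 lay just inside that mark at −0.323 and Cdkn2c just outside at −0.321. With reads scaled by library totals 2 of the 4 stayed past the mark, E2f2 and Gins2. None was 1.5-fold apart, against 1.8% of all genes higher and 1.97% lower by that much.

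Genes with few reads vary more from counting alone, and the 56 were well covered, with 413 to 33802 reads over both libraries. Among the 8312 genes with reads in that range, 3.27% were past the mark on the higher side and 8.22% on the lower. Log2 ratios had an SD over genes of 0.17 in the 56 and 0.21 in the 8312. The 8312 share only the range of reads of the 56 and were not matched to them in depth within it. Together the 56 genes held 0.840% of control-treated reads (exact 95% interval 0.835% to 0.845%) and 0.827% of LY500307-treated reads (0.823% to 0.832%).

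Counting intervals lay wholly above a fold of 1 for 9 of the 56, a smaller share than the 18.1% of all genes. They lay wholly below for 20, a larger share than the 23.7% of all genes. Among genes with reads in the same range the shares were 21.2% above and 27.8% below. Intervals excluded 1 for 51.8% of the 56, against 41.8% of all genes and 49.0% of those in the same range. With reads scaled by library totals in place of the deposited scaling, which raises every fold by 0.03 on the log2 scale, the counts were 17 above and 17 below. The shares of all genes were then 22.5% and 20.1%. Under that scaling the intervals of Ccnd2, Rbl2, E2f3, Cdc45, Rfc3, Pole, Rpa1 and Rpa2 lay above 1 instead of spanning it, and those of Mcm3, Rrm2 and Dut spanned 1 instead of lying below it. A further scale, given beside the results it alters, takes out the trend of the log2 ratio with transcript GC content and length over all genes. The balance of higher and lower genes in the set therefore moved with the scaling.

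**Figure D1:**
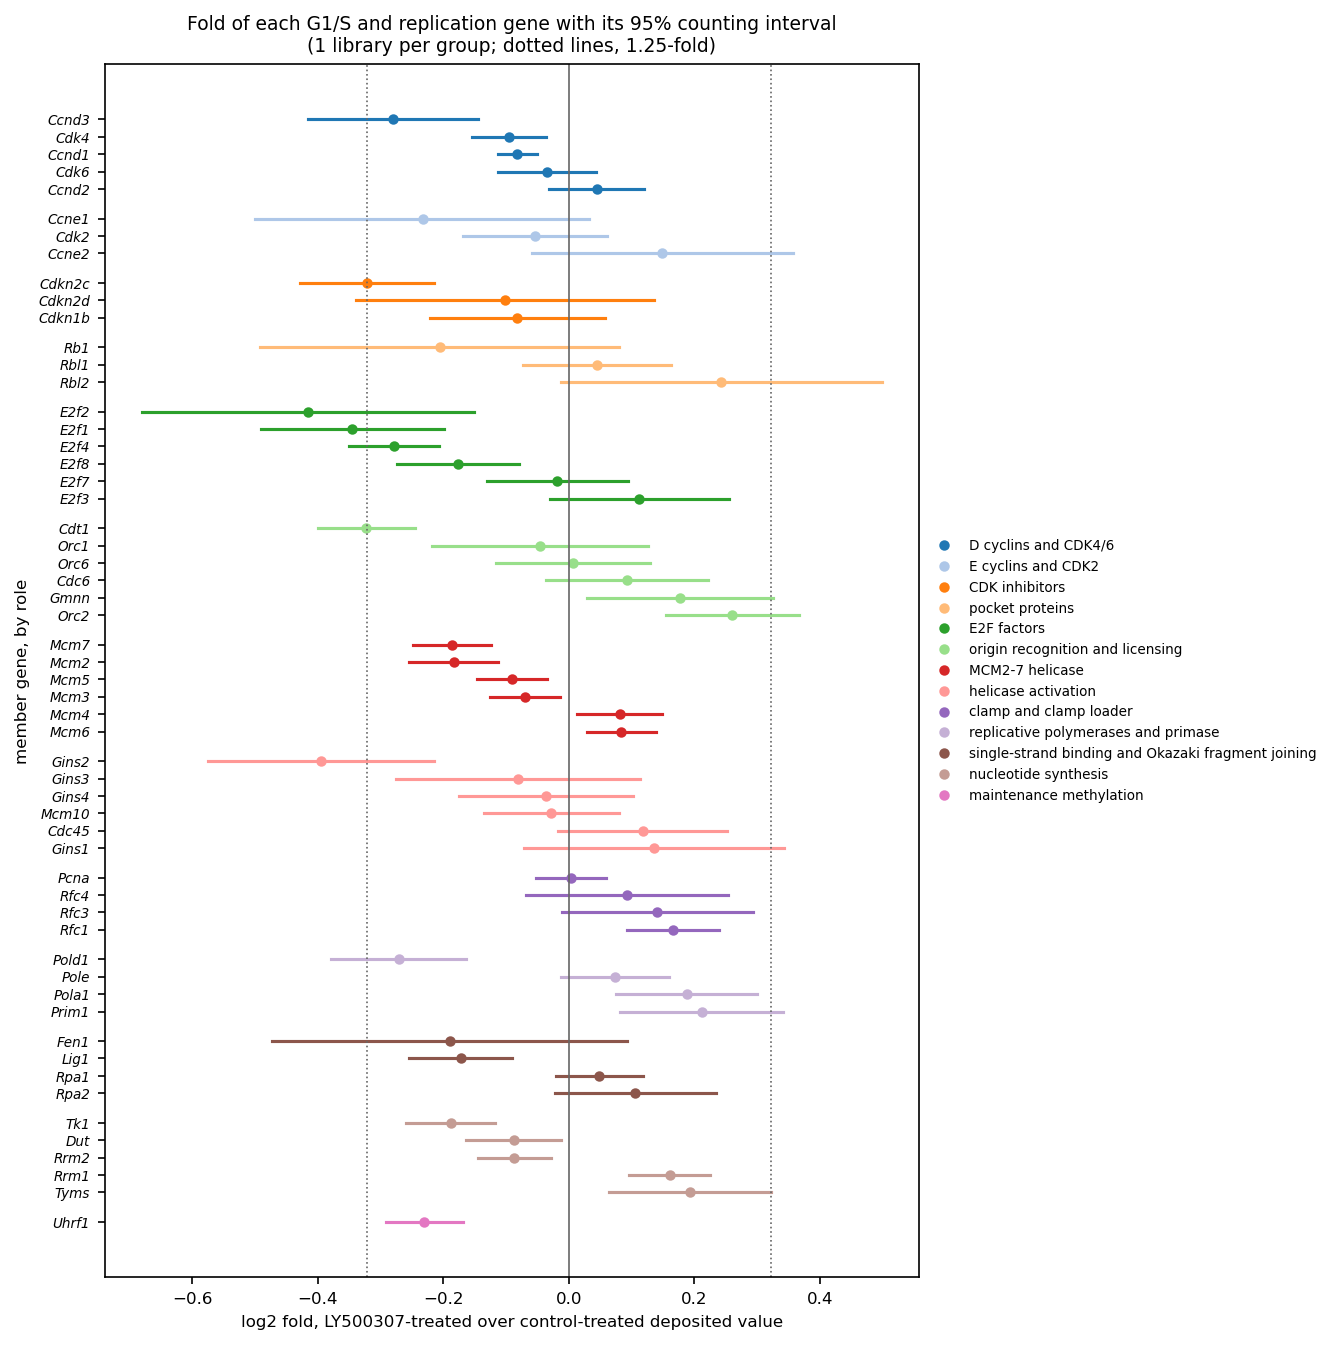
log2 fold of each of the 56 genes (LY500307-treated over control-treated deposited value), with lines for the exact 95% counting interval, colours for roles and dotted lines at the ratio of 5 to 4. The points lie between −0.41 for E2f2 and 0.26 for Orc2, and within most roles they fall on both sides of 0.

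Of the 5 genes for cyclins and kinases of G1, 4 had log2 ratios below 0 and none was past the mark. Ccnd1, which encodes cyclin D1, had the most reads of all 56 genes, 16872 and 16930, a fold of 0.945 (0.925 to 0.965). Ccnd2, for cyclin D2, had 2721 and 2980 reads, a fold of 1.03 (0.979 to 1.09). Ccnd3, for cyclin D3, had 958 and 838 reads, a fold of 0.824 (0.750 to 0.905). The intervals of Ccnd2 and Ccnd3 did not overlap. With the GC and length trend taken out, however, their log2 ratios of 0.04 and −0.28 became −0.04 and −0.10, both below 0. Their kinase partner genes were Cdk4, with 4638 and 4612 reads and a fold of 0.936 (0.899 to 0.975), and Cdk6, with a fold of 0.976 (0.925 to 1.03). Exons of Ccnd1 overlap those of LTO1 on the opposite strand over 23.4% of their length, and Cdk4 exons those of Tspan31 over 19.7%. In all, 11 of the 57 genes have exons that overlap another gene by at least 10%, and 24 have an overlap of any length. The library kit marks strand, but the sources used here do not say whether counting used it.

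None of the genes of the cyclin E kinase differed beyond counting error. Ccne1 had 249 and 225 reads (fold 0.851, 0.707 to 1.02), and its paralogue Ccne2 had 355 and 418 (fold 1.11, 0.960 to 1.28). Exons of Ccne2 overlap those of Ints8 on the opposite strand over 17.4% of their length, and Ints8 had 983 and 1072 reads. Cdk2, the catalytic subunit, had 1214 and 1242 reads (fold 0.963, 0.889 to 1.04). A difference within these intervals was not detectable at this depth.

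Of the 4 CDK inhibitor genes analysed, 3 reached the floor. Cdkn2c, an inhibitor of CDK4 and CDK6, had 1540 and 1309 reads and a fold of 0.80 (0.743 to 0.862). Cdkn2d, of the same family, had 296 and 293 reads (fold 0.932, 0.790 to 1.10). Cdkn1b, which restrains CDK2, had 847 and 850 reads (fold 0.945, 0.858 to 1.04). No inhibitor had a fold above 1 on the deposited scaling.

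The intervals of all 3 pocket protein genes spanned 1 on the deposited scaling, and that of Rbl2 lay above 1 with scaling by library totals. Rb1, for the retinoblastoma protein, had 215 and 198 reads (fold 0.867, 0.711 to 1.06). Rbl2, for its relative p130, had 230 and 289 reads (fold 1.18, 0.991 to 1.41), and Rbl1, for p107, had 1119 and 1226 (fold 1.03, 0.95 to 1.12).

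E2F factor genes included 2 of the 4 genes past the mark on the lower side. E2f1 (ENSMUSG00000027490), an activator of S-phase genes, had 843 and 705 reads, and E2f2 (ENSMUSG00000018983), another activator, had 270 and 215. Their folds were 0.787 (0.711 to 0.871) and 0.750 (0.624 to 0.900), or 1.27 and 1.33 times lower. E2f3, for the remaining activator, had 750 and 861 reads and a fold of 1.08, with an interval that spanned 1 (0.979 to 1.19) but lay above it with scaling by library totals. E2f4, which encodes a repressor that works with pocket proteins, had 3412 and 2987 reads (fold 0.824, 0.784 to 0.866). Of the atypical repressor genes, E2f8 had 1763 and 1657 reads (fold 0.885, 0.827 to 0.947) and E2f7 1272 and 1334 (fold 0.987, 0.914 to 1.07). The median log2 ratio of the 6 was −0.23 on deposited values and −0.10 once a trend with GC content and length was taken out.

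Origin licensing genes spanned nearly the whole range. Cdt1 (ENSMUSG00000006585), the factor that brings MCM2-7 to origins, had 2944 and 2500 reads and a fold of 0.80 (0.758 to 0.844). Gmnn, which encodes geminin, the inhibitor of CDT1, had 683 and 820 reads and a fold of 1.13 (1.02 to 1.3). The counting intervals of Cdt1 and Gmnn lay apart, on opposite sides of 1. Orc2, a subunit of the origin recognition complex, had 1292 and 1644 reads and the highest fold of the set, 1.2 (1.11 to 1.29). Its exons overlap those of Nif3l1 on the opposite strand over 29.8% of their length. The other subunit genes Orc1 and Orc6, with folds of 0.969 (0.860 to 1.09) and 1.0 (0.923 to 1.09), did not differ beyond counting error, nor did Cdc6 (1.07, 0.975 to 1.17).

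The 6 genes of the MCM2-7 helicase, which are needed in equal numbers in the complex, had folds from 0.879 for Mcm7 to 1.06 for Mcm6. Mcm7 had 4283 and 3998 reads (0.842 to 0.918) and Mcm2 3349 and 3132 (fold 0.881, 0.838 to 0.925). Mcm6 had 5075 and 5713 reads (1.02 to 1.10) and Mcm4 3299 and 3707 (fold 1.06, 1.01 to 1.11). Mcm3 and Mcm5 lay between. Mcm3 had 5127 and 5188 reads (fold 0.953, 0.916 to 0.990) and Mcm5 5166 and 5154 (fold 0.939, 0.904 to 0.976). All 6 intervals excluded 1 on the deposited scaling, 2 above and 4 below, and with scaling by library totals Mcm3 no longer did. No helicase gene was past the mark. With the GC and length trend taken out, 2 of the 6 log2 ratios were above 0, the highest at 0.02. Mcm4 went from a log2 ratio of 0.08 to −0.0024 and Mcm6 from 0.08 to 0.02. Mcm3 went from −0.07 to 0.0030, Mcm5 from −0.09 to −0.03, Mcm7 from −0.19 to −0.09 and Mcm2 from −0.18 to −0.13. Reads of Mcm7 are uncertain, because the processed pseudogene Gm5487 matches it at 97.7% identity over 2157 bases. The same holds for Ccnd3, Cdc6, Pcna, Rrm2, Tyms and Uhrf1, which have copies of at least 95% identity over 400 bases. Where the copies were counted their reads were few, 3 and 5 for Ccnd3-ps, 47 and 46 for Pcna-ps2 and 15 and 22 for Gm5648, the copy of Uhrf1.

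Among factors that activate the helicase, Gins2 (ENSMUSG00000031821), a GINS subunit gene, had 567 and 458 reads and a fold of 0.761 (0.671 to 0.862). Its exons overlap those of Gse1 on the opposite strand over 67.3% of their length, and Gse1 had 386 and 288 reads, a fold of 0.702 (0.601 to 0.820). Whether reads of one gene were counted for the other was not tested. For the other GINS genes the intervals spanned 1. Gins1 had 359 and 419 reads (fold 1.10, 0.952 to 1.27), Gins3 437 and 439 (0.946, 0.827 to 1.08) and Gins4 841 and 871 (0.975, 0.886 to 1.07). Cdc45, with 840 and 968 reads (1.08, 0.988 to 1.19), and Mcm10, an origin-firing factor (0.981, 0.911 to 1.06), also had intervals that spanned 1, though that of Cdc45 lay above 1 with scaling by library totals.

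Genes of the sliding clamp and its loader were level or slightly higher on deposited values, with 4 of 4 log2 ratios above 0. With the GC and length trend taken out, 2 of 4 were above 0. Pcna, the clamp that holds polymerases on DNA, had 5082 and 5412 reads and a fold of 1.0 (0.965 to 1.04). Rfc1, the large subunit of the loader, had 2802 and 3340 reads and a fold of 1.12 (1.07 to 1.18). Rfc3 and Rfc4 had folds of 1.10 (0.992 to 1.23) and 1.07 (0.953 to 1.19), and the interval of Rfc3 lay above 1 with scaling by library totals. Exons of Rfc4 overlap those of Eif4a2 on the opposite strand over 12.7% of their length. Eif4a2 had 4649 and 5668 reads, against 598 and 677 for Rfc4. Whether reads of one were counted for the other was not tested.

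The polymerase genes lay on both sides of 1 on deposited values. Pold1, the catalytic subunit of polymerase delta, had 1516 and 1334 reads and a fold of 0.828 (0.769 to 0.892). Prim1, the catalytic subunit of primase, had 878 and 1080 reads and a fold of 1.16 (1.06 to 1.27), and Pola1, of polymerase alpha in the same complex, had 1192 and 1442 (1.14, 1.05 to 1.23). Pole, of polymerase epsilon, had 2061 and 2303 reads (1.05, 0.991 to 1.12), an interval that lay above 1 with scaling by library totals. The contrast did not hold with the GC and length trend taken out. The log2 ratio of Pold1 then turned from −0.27 to 0.04, above that of Pola1 at 0.02, and all 4 genes were above 0.

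Of the genes for single-strand binding and Okazaki fragment processing, Lig1, the DNA ligase that seals fragments, had 2469 and 2327 reads (fold 0.887, 0.838 to 0.939). For the single-strand binding protein, Rpa1 had a fold of 1.03 (0.986 to 1.08) and Rpa2, with 942 and 1077 reads, 1.08 (0.985 to 1.18). Both intervals lay above 1 under scaling by library totals. The flap endonuclease gene Fen1 had 218 and 203 reads (0.877, 0.721 to 1.07). Gm10143 on the opposite strand covers 78.8% of Fen1 exons and itself had 17 and 25 reads. Tmem258, also on the opposite strand, covers 5.37% of them and had 1151 and 1038 reads. Whether reads of one gene were counted for another was not tested.

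Nucleotide synthesis genes had folds on both sides of 1. Rrm1, the large subunit of ribonucleotide reductase, had 3598 and 4272 reads (fold 1.12, 1.07 to 1.17), and Rrm2, the small subunit, had 4846 and 4847 (0.942, 0.905 to 0.980). Tyms, thymidylate synthase, had 896 and 1088 reads (1.14, 1.05 to 1.3), and Tk1, the thymidine kinase of the salvage route, had 3349 and 3122 (0.878, 0.836 to 0.922). Dut, which removes dUTP, had 2801 and 2799 reads (0.941, 0.893 to 0.992). All 5 intervals excluded 1 on the deposited scaling, but those of Rrm2 and Dut, which had nearly equal reads, did not with scaling by library totals. With the GC and length trend taken out, the log2 ratio of Rrm1 went from 0.16 to 0.02 and that of Tyms from 0.19 to 0.13. Uhrf1, which recruits the maintenance DNA methyltransferase to replicated DNA, had 4602 and 4167 reads and a fold of 0.853 (0.817 to 0.889).

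Levels per length spread over 101.9-fold between genes, far more than any gene differed between libraries. On the scale of recovered reads per kilobase of the longest annotated transcript, averaged over both libraries, Ccnd1 stood highest at 4519, followed by Pcna at 3457, Cdk4 at 2253 and Rrm2 at 2210. The lowest were Rb1 at 44.4, E2f2 at 51.2, Rbl2 at 52.7 and Fen1 at 88.7. The median level of the 56 was 417, against 160 over all genes at or above the floor. The MCM2-7 genes lay within 1.65-fold of each other, from 927 for Mcm2 to 1526 for Mcm5, and the 4 GINS genes within 4.83-fold, from 131 for Gins2 to 635 for Gins4. A gene whose main transcript is shorter than its longest annotated one is understated on this scale.

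**Figure D2:**
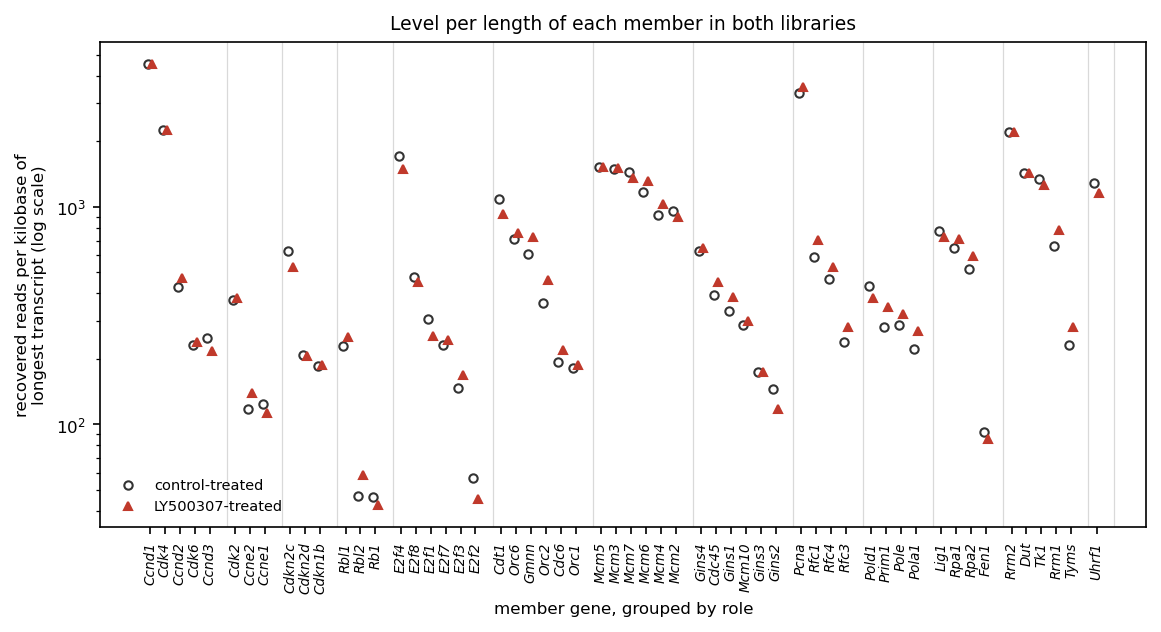
Recovered reads per kilobase of longest transcript (log scale) for the 56 genes, grouped by role, with open circles for the control-treated and triangles for the LY500307-treated library. The symbols of each gene lie close together while genes range from 44.4 for Rb1 to 4519 for Ccnd1 as the mean of both libraries.

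The order of the genes by ratio followed the GC content of their transcripts. Across the 56 genes the Spearman correlation of the log2 ratio with GC content was −0.73, and with transcript length 0.17, as a description over genes that share both libraries. Over 11370 genes at or above the floor with known GC content these were −0.59 and 0.24. All 19 members with the highest GC content, 51.7% to 61.0%, had log2 ratios below 0, with a median of −0.23. All 4160 genes in that range of GC content had a median of −0.17, and 19.3% of them lay above 0. Of the 19 members with the lowest GC content, 36.3% to 46.9%, 14 lay above 0, with a median of 0.09, and the 4003 genes in that range had a median of 0.12. The 18 members between had a median of 0.05, against −0.01 over 2881 genes.

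After removal of a trend in GC content and length fitted over all nuclear genes at or above the floor, many of the differences named above were smaller. The log2 ratio of E2f1 went from −0.34 to −0.11, that of Cdt1 from −0.32 to −0.10, that of Cdkn2c from −0.32 to −0.09 and that of E2f2 from −0.41 to −0.25. Gins2 went from −0.39 to −0.31, Pold1 from −0.27 to 0.04 and Uhrf1 from −0.23 to −0.13. On the higher side Pola1 went from 0.19 to 0.02, Prim1 from 0.21 to 0.11 and Orc2 from 0.26 to 0.16. Gmnn, with a GC content near the median, went from 0.18 to 0.21. Rb1, the reverse case of a GC-poor gene with a fold below 1, went from −0.20 to −0.37 and was then the only member past the mark, where 5.69% of genes were higher and 5.44% lower. Its counting interval spanned 1. The median of the 56 after removal was −0.05, and the SD over genes went from 0.17 to 0.12, against 0.15 for genes with reads in the same range. A weaker relation to GC content remained in the members, with a Spearman correlation of −0.18 against −0.0034 over all genes. Their medians were −0.0024 in the 19 with the lowest GC content, 0.02 in the 18 between and −0.10 in the 19 with the highest.

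**Figure D3:**
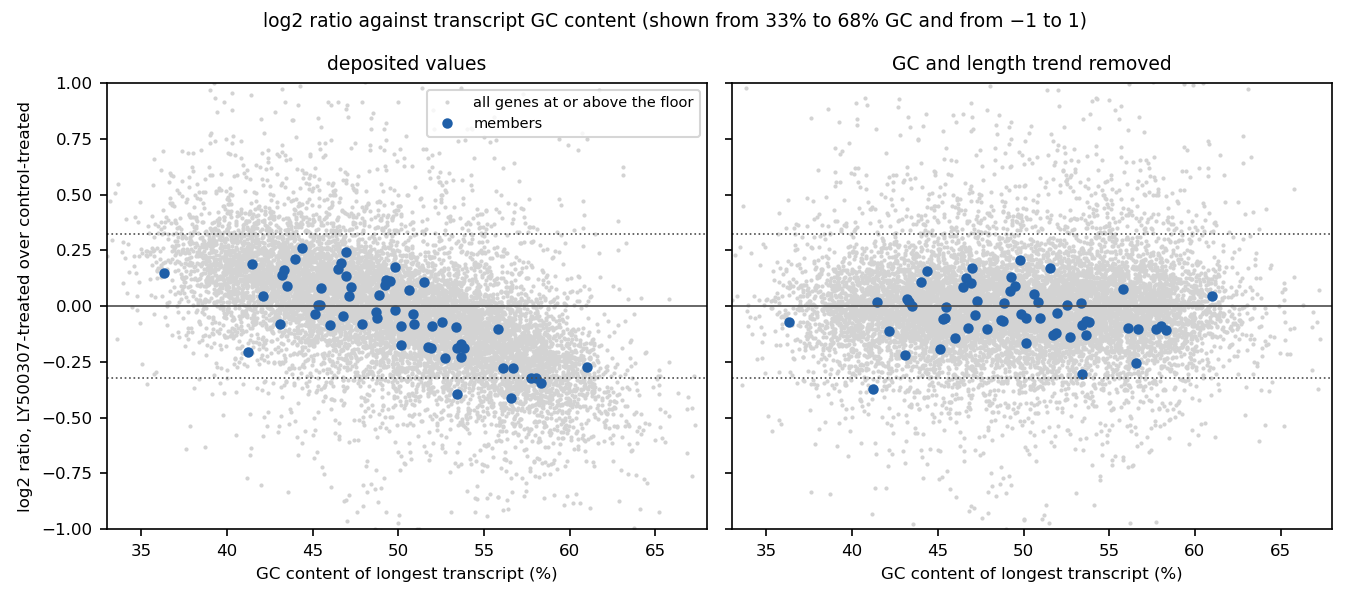
log2 ratio against GC content of the longest transcript, on deposited values (left) and with the GC and length trend taken out (right), with the 56 genes as large points, all other genes at or above the floor as small points and dotted lines at the ratio of 5 to 4. On the left the members lie on the falling band of all genes, with all 19 of the highest GC content below 0, and on the right the Spearman correlation with GC content is −0.18 in the members.

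**Figure D4:**
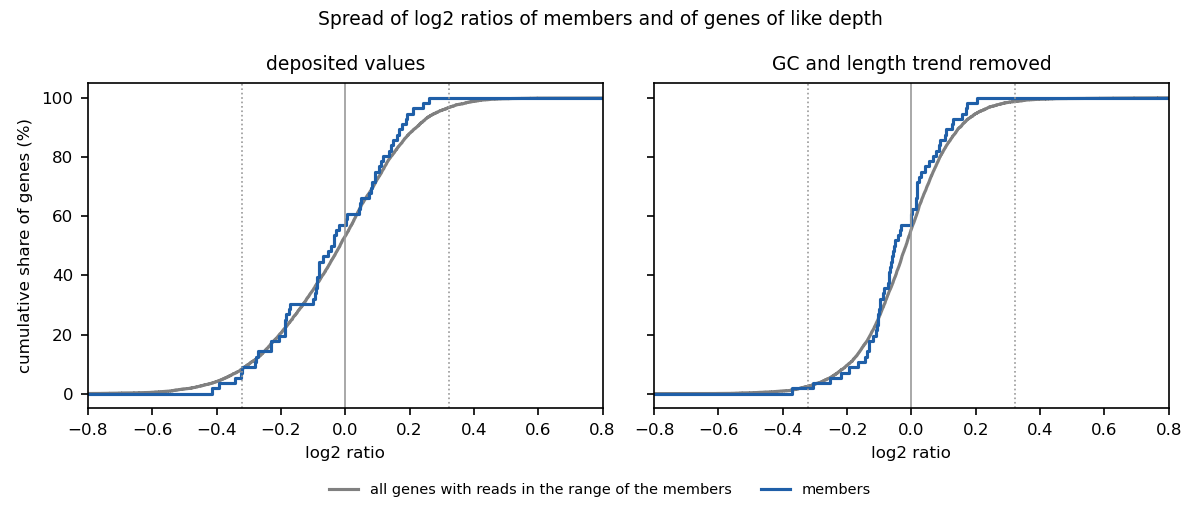
Cumulative share of genes (percent) by log2 ratio for the 56 members and for genes with reads in the same range (the 8312, less those of unknown GC content). Deposited values are on the left and values with the GC and length trend taken out on the right, with dotted lines at the ratio of 5 to 4. The curve of the members is the steeper, with an SD of 0.17 against 0.21 on the left and 0.12 against 0.15 on the right. The sets share a range of reads and were not matched in depth within it.

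Genes with and without the E2F motif had similar ratios. The 27 genes at or above the floor with the motif had a median log2 ratio of −0.05, with 11 above 0 and 16 below. The 18 without it had a median of −0.06, with 7 above and 11 below. Among those without it were genes of DNA synthesis such as Pcna, Mcm2 and Tyms. The split rests on exact letters, with no binding measured, so it does not tell E2F targets from other genes. Of the promoters printed above, those of Cdkn2c and Uhrf1 belong to genes with log2 ratios of −0.32 and −0.23, and those of Rrm1 and Prim1 to genes at 0.16 and 0.21.

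Other genes of the same processes were also close to level. Of 40 other replication fork and origin genes, all at or above the floor, none was past the mark on the higher side and 1 was on the lower, Rnaseh2c, a subunit of the enzyme that removes RNA from DNA, with 913 and 677 reads (fold 0.698, 0.631 to 0.772). Their median log2 ratio was 0.02, with 25 above 0, and with the trend taken out Rnaseh2c went from −0.52 to −0.27, inside the mark. The highest was Orc4, another origin recognition subunit, at 0.27. Of 29 other G1/S control genes at or above the floor, 3 were higher past the mark and 1 lower, with a median of 0.08. Lin52, a subunit of the DREAM and MuvB complexes that regulate cell cycle genes, had 81 and 118 reads (1.37, 1.03 to 1.84). Fbxw7, the F-box protein that marks cyclin E for degradation, had 318 and 428 (1.27, 1.09 to 1.47), and Mnat1, an assembly factor of the CDK-activating kinase, 497 and 667 (1.26, 1.12 to 1.42). Fzr1, an activator of the anaphase-promoting complex in G1, was lower, with 1610 and 1320 reads (0.772, 0.717 to 0.831), and its log2 ratio went from −0.37 to −0.09 after removal of the trend. Fbxw7 went from 0.34 to 0.27 and Mnat1 from 0.34 to 0.13, which left Lin52, at 0.36, as the only gene of this list past the mark. Below the floor, Cables1 had 29 and 22 reads.

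Of 27 other nucleotide synthesis genes, none was higher past the mark and 3 were lower, with a median log2 ratio of −0.02. Shmt2, a mitochondrial enzyme that supplies one-carbon units, had 7544 and 5965 reads (fold 0.744, 0.719 to 0.770). Its log2 ratio went from −0.43 to −0.21 with the trend taken out, inside the mark, which left 2 of the 3. Dguok, the mitochondrial deoxyguanosine kinase, had 177 and 140 (0.745, 0.592 to 0.935). Nme2, a nucleoside diphosphate kinase gene with 40 and 26 reads (0.612, 0.359 to 1.03), is a close paralogue of Nme1, so its reads are uncertain. The counts of the 3 lists past the mark are to be read against the 7.15% and 11.1% of all genes.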

How the data were processed

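RNA of 1 control-treated and 1 LY500307-treated 4T1 culture went into strand-marking libraries after ribosomal RNA removal, per the labels' protocols. Per the submitters' processing notes, CASAVA 1.8, Bowtie2 and the build mm9 were used, with no role stated. The sources used here do not give the counter, annotation, use of strand or scaling tool. The deposited signal per gene was a read count rescaled by the authors, judged from the values: 99.95% and 99.96% of them lay within 0.01 of whole multiples of 1.03059 and 0.970322. Entries that differ from 0 only by rounding were read as 0.

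Symbols, GC content and length of the longest transcript came from GENCODE M21 (19443 of 19498 IDs). Coordinates are given for RefSeq promoters alone. The log2 ratio used a pseudocount of 1.03 (5th percentile of values above 0), and the floor was the 40th percentile. No count test was fitted, since without replicates the spread within a group cannot be estimated. Intervals are Clopper-Pearson on the treated share of reads, rescaled to a fold. They cover counting error only, and PCR copies were not told from separate molecules.

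The GC and length trend was fitted by robust regression (cubic splines, 5 degrees of freedom for each term, statsmodels 0.14.6, scipy 1.17.1). Pseudogene copies were sought by alignment and exon overlaps in the annotation. Steps were tested on simulated data. Members, lists and the ratio of 5 to 4 were chosen with earlier results of these data known. The rule named in full the members past that ratio, the highest and lowest of each role, the 5 with the most reads, list genes past the ratio and the highest and lowest over the lists. Other members are given for their role, Orc4 for the top of its list. Alternatives were another pseudocount, floor, scaling, fold, background and promoter window.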

Additional observations from a re-analysis of the deposited data

How the results depend on the processing

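No paired analysis was possible because each group has 1 library. The median log2 ratio of the 56 genes kept within −0.05 to −0.01 under every alternative run, and none was higher by a ratio of 5 to 4 under any, or by 1.2-fold or 1.5-fold where those were used. The count of members lower by a ratio of 5 to 4 was 4. It went to 2 with CPM of recovered reads and to 1 with the GC and length trend removed. At 1.5-fold it was 0, and at 1.2-fold 8, where 15.9% of all genes were lower. With a pseudocount of 10 (10.1% of all genes), median-centring (10.1%) or the floor at the 60th percentile (8.09%) it was 3. Without a floor it was 5, where 20.1% of all genes were lower. With the trend removed, other replication genes lower by that ratio went from 1 to 0, and other G1/S control genes from 3 higher and 1 lower to 1 and 0. At 1.5-fold these counts were 0, 0 and 0, and 1 nucleotide synthesis gene was lower in place of 3. At 1.2-fold 1 other replication gene was higher. Without a floor 2 other G1/S control genes were lower, and with the floor at the 60th percentile 1 nucleotide synthesis gene was lower. Fewer genes are tested with a higher floor; the other causes were not tested. Removal of the trend moved 22 of 56 members outside their counting intervals, CPM moved 1, and the pseudocounts and median-centring moved 0. The E2F share of promoters was 57.4% in the shorter window.

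Depth limits the genes with few reads. For Cdkn1c, with 3 and 0 reads, no difference was detectable, and for Rb1, E2f2, Ccne1, Rbl2 and Fen1 the intervals are the widest.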

Other observations

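Markers of cells in G2 and mitosis, which follow DNA replication, were described beside the replication genes. All 12 were at or above the floor, with a median log2 ratio of 0.03, 6 above 0 and 6 below, and none was past the ratio of 5 to 4. Cenpf, a kinetochore protein gene, was the highest, with 3445 and 4417 reads and a log2 ratio of 0.27. Aurkb, a mitotic kinase gene, was the lowest, with 1880 and 1708 reads and a log2 ratio of −0.23. Mki67, the gene of the proliferation antigen Ki-67, had 9216 and 11237 reads and a log2 ratio of 0.20. With the GC and length trend taken out, the 12 had a median of 0.02 and lay between −0.14 and 0.10.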
